A study of Trametes coccinea with 18 samples.

Results

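Pycnoporus coccineus CIRM-BRFM 310 (Pycco 310) is a white-rot fungus that breaks down cellulose, hemicellulose and lignin of plant cell walls. The genes described here are 5 of its 12690 gene models, named by their protein IDs 1341535, 1422935, 1434060, 1434417 and 1448471. The study marked 22 genes for wheat straw alone among its complex plant substrates, and the 5 were picked from these because they were transcribed more highly on wheat straw than on aspen and on pine in most settings of the test. The levels on wheat straw, aspen and pine therefore chose them, and the study's own choice of the 22 also rested on maltose and Avicel. No level on xylan-galactomannan entered either choice.

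RNA was sequenced from 3 cultures per carbon source on day 3, which gave 18 libraries. The maltose cultures held 20 g/l of maltose, an easily assimilated sugar. According to the labels, the other cultures held 2.5 g/l of maltose with 15 g/l of Avicel (a crystalline cellulose), ground aspen (a hardwood), ground pine (a softwood), ground wheat straw (a grass) or xylan-galactomannan (hemicelluloses), whereas the study's methods give each substrate as the sole carbon source and do not describe the xylan-galactomannan medium. All groups were of the 1 strain and were harvested at 1 time point, so early and late responses were not separated. The description of xylan-galactomannan replicate 3 lists wheat straw in its medium, while its title and agent name xylan-galactomannan. Over 11168 gene models its log2 levels correlated with the other xylan-galactomannan libraries with r of 0.976 and 0.955, and with the wheat straw libraries with r of 0.950 to 0.953. It was kept in the group of its title, and values without it are given beside the results that rest on it. Library totals ran from 26370228 to 42190522 counts. Replicates of a carbon source correlated with r of 0.975 to 0.992 over all 12690 gene models, which include 773 without a count. The lowest of these was for xylan-galactomannan replicates 2 and 3, the pair with 0.955 over the 11168. Values over the 12690 are therefore not to be set against those over the 11168.

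None of the 5 genes has a predicted signal peptide in the study's annotation. Gene 1341535 is annotated as a galactonate dehydratase. In Trichoderma reesei and Aspergillus niger, an L-galactonate dehydratase acts in the catabolism of D-galacturonate, the main sugar acid of pectin. Gene 1434060 is annotated as a flavin-containing monooxygenase with a cyclohexanone monooxygenase activity, and enzymes of this kind use NADPH and oxygen to insert an oxygen atom into ketones or other small molecules. Gene 1434417 is a predicted oxidoreductase. Gene 1422935 carries 2 annotations that point to different proteins, a peptidylprolyl isomerase, which aids protein folding, and a Yippee-type zinc-binding protein. Gene 1448471 is annotated as a calpain-type protease, a cysteine protease that cuts proteins within the cell in a calcium-dependent manner. These functions are predictions from sequence.

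The levels below are normalized counts, the raw count of a library divided by its DESeq size factor, and the means with SD are of log2(normalized count + 1) over 3 libraries. In bulk RNA, more hyphae that transcribe a gene and more RNA per hypha cannot be told apart. Log2 fold changes, their standard errors (SE) and adjusted p-values are from the edgeR quasi-likelihood test with Benjamini-Hochberg adjustment over all gene models tested. A gene was called higher or lower where its log2 fold change exceeded 1 in size and its adjusted p was below 0.05.

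The galactonate dehydratase gene 1341535 was transcribed at the highest mean level on xylan-galactomannan and next on wheat straw. On wheat straw its 3 libraries held 6551, 10798 and 8888 normalized counts, and on xylan-galactomannan 12770, 9481 and 13434. On pine they held 4820, 4254 and 3597, and on aspen 3019, 3419 and 3428. On maltose they held 1917, 2535 and 2847, and on Avicel 1458, 1022 and 1581. All wheat straw libraries lay above all wood libraries, and the wheat straw and xylan-galactomannan libraries overlapped. It was the 1 gene of the 5 with a lower level on Avicel than on maltose, without overlap. Its log2 level was 13.06 ± 0.36 on wheat straw (SD, n = 3), 11.68 ± 0.10 on aspen and 12.03 ± 0.21 on pine.

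Gene 1422935, annotated as an isomerase and as a zinc-binding protein, was highest on wheat straw, where its libraries held 7669, 12360 and 12265 normalized counts. Xylan-galactomannan followed with 6307, 5132 and 6988. The pine libraries held 3558, 4666 and 2741 and the aspen libraries 2498, 3240 and 2684. Wheat straw and xylan-galactomannan did not overlap, although wheat straw replicate 1 came within 680.1 normalized counts of the highest xylan-galactomannan library, and the woods overlapped with each other. On Avicel the libraries held 1230, 1680 and 2072, and on maltose 891, 951 and 895. Its log2 level was 13.36 ± 0.39 on wheat straw (SD, n = 3) and 9.83 ± 0.05 on maltose.

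The flavin monooxygenase gene 1434060 stood high on wheat straw alone. Its wheat straw libraries held 8080, 10590 and 9949 normalized counts. The pine libraries held 5592, 3635 and 1873, a wide spread, with a log2 level of 11.72 ± 0.79 (SD, n = 3) against 13.21 ± 0.20 on wheat straw. Aspen gave 2115, 3033 and 2433, Avicel 3261, 1786 and 2836, and xylan-galactomannan 2435, 1695 and 1980. Pine, Avicel, aspen and xylan-galactomannan, in this order of their means, overlapped from each to the next, so that their order is not beyond the spread. The maltose libraries were lowest, with 863, 579 and 491.

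The oxidoreductase gene 1434417 varied least of the 5 between wheat straw cultures, with 6723, 7849 and 7110 normalized counts and a log2 level of 12.82 ± 0.11 (SD, n = 3). Xylan-galactomannan gave 5824, 4325 and 6545, all below wheat straw. Aspen gave 3023, 3298 and 3463, all above the pine values of 2911, 2515 and 1956. It was the 1 gene of the 5 with a higher mean on aspen than on pine. Avicel gave 1724, 1528 and 1612 and maltose 538, 664 and 640, and no 2 carbon sources next to each other in the order overlapped.

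The calpain-type protease gene 1448471 spanned the widest range, 49.1-fold between its lowest and its highest library. Its wheat straw libraries held 7020, 26850 and 20103 normalized counts, so that replicate 1 was far below the other two, and the log2 level was 13.93 ± 1.02 (SD, n = 3). On xylan-galactomannan its libraries held 16546, 14225 and 16117, within the range of the wheat straw libraries, with a log2 level of 13.93 ± 0.12. The pine libraries held 2692, 3624 and 2328, above all Avicel libraries with 1356, 1261 and 1043. Aspen gave 1201, 846 and 779, which overlapped with Avicel, and maltose 564, 547 and 640. The annotation of the Pycco1 assembly places the adjacent gene model 1481898 over 477 bases of this gene, and the strand used in counting was not given in the sources used here. Gene 1481898 held 301 to 1319 normalized counts over all libraries, with its highest values on Avicel, and 675 to 835 on wheat straw. It was below 1448471 in every aspen, pine, wheat straw and xylan-galactomannan library. At the low levels of 1448471 on maltose and Avicel it was below only in maltose replicate 3 (491 against 640) and Avicel replicate 1 (1319 against 1356). It held 773 and 619 normalized counts in maltose replicates 1 and 2, above the 564 and 547 of 1448471. It held 1261 in Avicel replicate 2, equal to 1448471, and 1124 in replicate 3, above the 1043 of 1448471. How far shared reads enter the fold changes of 1448471 against maltose and Avicel was not tested.

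**Figure D1:**
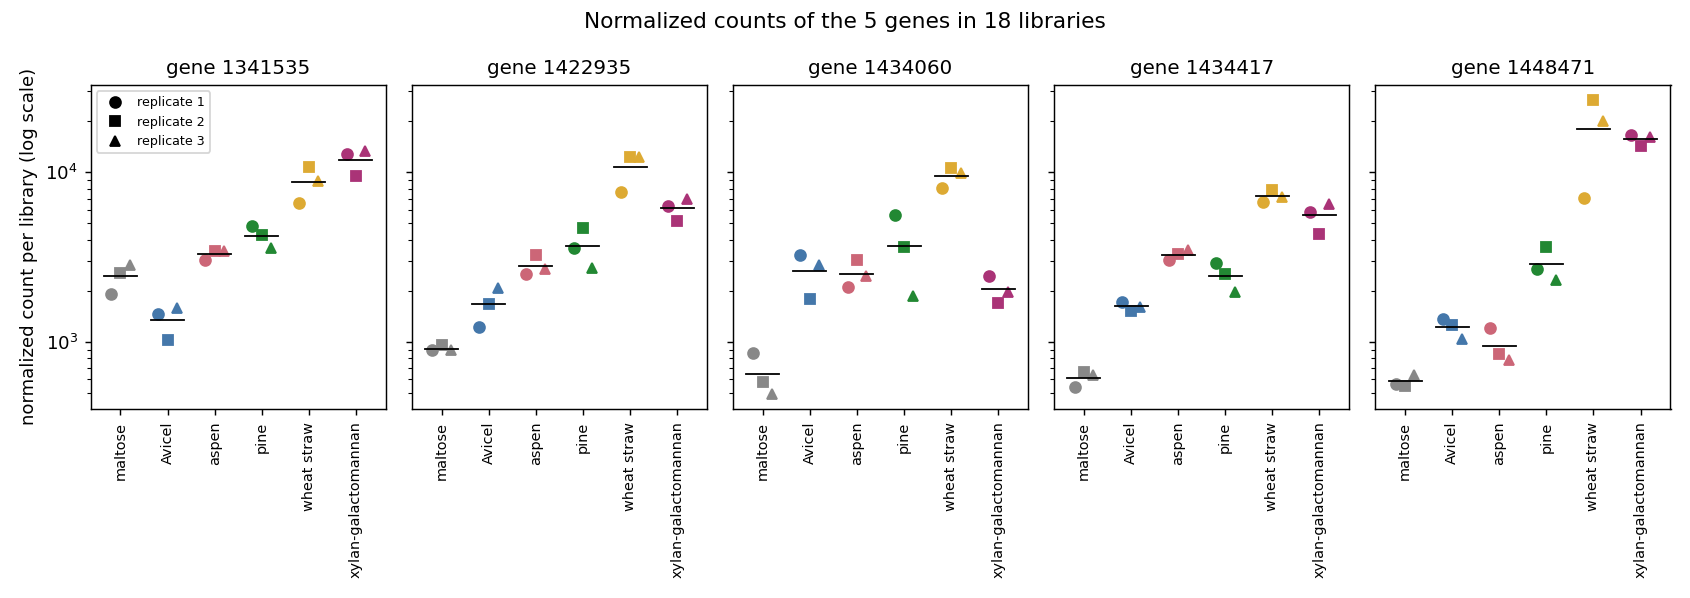
Normalized counts (log scale) of the 5 genes in each of the 18 libraries, by carbon source, where each symbol is 1 library (circle, square and triangle for replicates 1, 2 and 3) and each bar is the mean of 3 libraries. The xylan-galactomannan libraries sit close to the wheat straw libraries for 1341535, 1434417 and 1448471, somewhat below them for 1422935, and at the level of aspen and Avicel for 1434060.

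To compare the genes with each other, the RPKM values of the deposited table were used, which take the length of the gene model into account. On wheat straw, 1422935 had the highest RPKM of the 5, 1105 ± 288 (SD, n = 3), which placed it at rank 96 of 11862 gene models with a mappable length. The protease gene 1448471 followed with 280 ± 160 and 1341535 with 218 ± 56.5. The monooxygenase gene 1434060 had 166 ± 25.3 and the oxidoreductase gene 1434417 had 158 ± 15.3, at ranks 985 and 1028. On maltose 1422935 was again first, at 80.8 ± 9.07, before 1341535 at 53.0 ± 16.1, whereas 1434417, 1434060 and 1448471 had 11.7 ± 2.22, 9.55 ± 2.19 and 7.86 ± 1.69. The gene models of the 5 run from 333 to 2325 bases, and 1422935 is the shortest.

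Wheat straw was then set against each wood, the comparisons that chose the genes. Since they did so, the values are a description. Against aspen, the log2 fold change was 1.43 (SE 0.23) for 1341535, 1.96 (SE 0.25) for 1422935, 1.94 (SE 0.34) for 1434060, 1.17 (SE 0.17) for 1434417 and 4.28 (SE 0.39) for 1448471. Against pine, it was 1.07 (SE 0.22), 1.58 (SE 0.25), 1.38 (SE 0.33), 1.57 (SE 0.17) and 2.66 (SE 0.36) in the same order. Of all 11112 gene models tested, 4.13% were called higher on wheat straw than on aspen and 10.0% higher than on pine. The 459 gene models higher than on aspen became 214 without aspen replicate 1 and 257 without wheat straw replicate 3. Both calls were met by 145 gene models, 1.30% of those tested. Ranked by the smaller of their 2 log2 fold changes, 1448471 was number 10 among the 145, 1422935 number 41, 1434060 number 68, 1434417 number 99 and 1341535 number 129, so the 5 were spread over most of the range. Scaled by library totals alone, the median log2 fold change of all gene models moved by 0.28 against aspen and by 0.57 against pine, and the share of higher genes among all calls moved from 38.8% to 69.9% and from 46.4% to 86.2%. Relative to these medians the 5 genes had 1.15 to 4.27 against aspen and 1.05 to 2.66 against pine.

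Just inside the rule stood 1341535, which was called above both woods in 15 of 17 settings and lost the call with Bonferroni adjustment and without wheat straw replicate 2, where its log2 fold change against pine was 0.89. Genes 1422935 and 1434060 were called in 16 settings, all but Bonferroni adjustment, and 1434417 and 1448471 in all 17. Just outside the rule stood 1465854, called in 13 settings, 1471389, annotated as a secreted tripeptidyl-peptidase, in 12, and 1441479, which has a predicted signal peptide, in 10, as was 1387488. Their log2 fold changes against aspen and pine were 1.25 and 1.46 for 1465854, 1.66 and 4.45 for 1471389, and 1.18 and 2.41 for 1441479. Gene 1471389 thus lay above all 5 members in its fold change against pine, and it lost the call when single aspen or wheat straw libraries were left out.

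**Figure D2:**
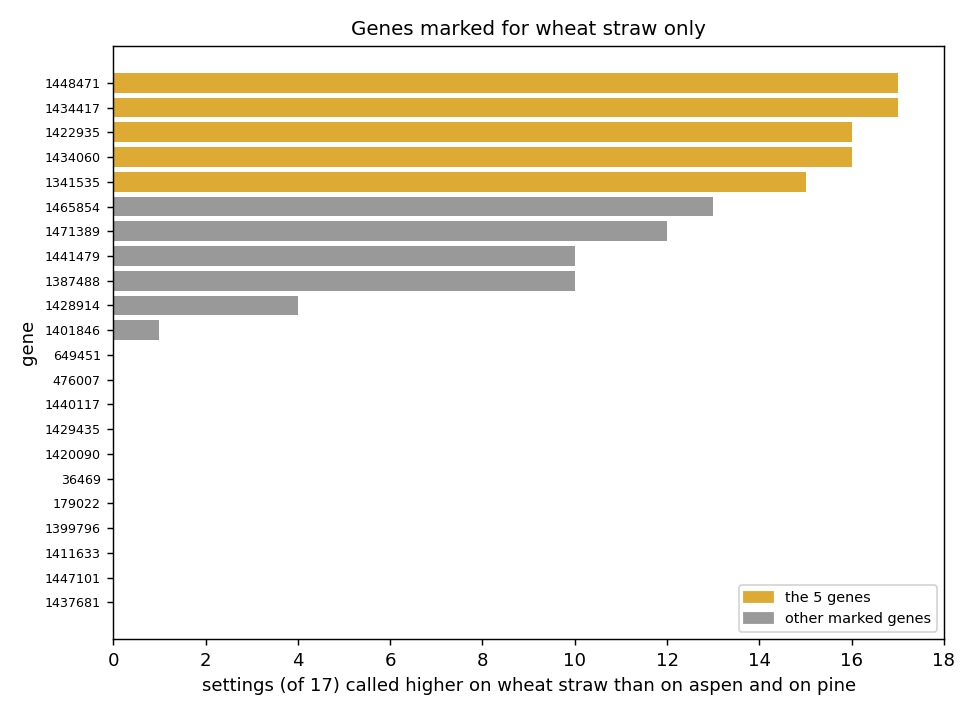
Number of settings, of 17, in which each of the 22 genes that the study marked for wheat straw alone was called higher on wheat straw than on aspen and on pine. The 5 genes described here reached 15 to 17, the next reached 13, 12, 10 and 10, and most of the others reached 0.

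Xylan-galactomannan against maltose was the comparison farthest from the choice of the genes, although the maltose libraries had served in the study's marking. The values are therefore a description, with no test of the 5 read from them. By the call rule all 5 genes passed as higher on xylan-galactomannan, where 19.4% of 11168 gene models did. The protease gene 1448471 had a log2 fold change of 4.78 (SE 0.38), and the oxidoreductase gene 1434417 had 3.22 (SE 0.21). Gene 1422935 had 2.79 (SE 0.26) and the galactonate dehydratase gene 1341535 had 2.32 (SE 0.25). The monooxygenase gene 1434060 had the smallest, 1.70 (SE 0.33). The median of the 5 was 2.79 on the log2 scale beside 0.01 over all gene models tested. With Bonferroni adjustment 4 of the 5 passed, and 1434060 did not, where 944 of all gene models were called higher. Without replicate 3, the library with conflicting labels, all 5 still passed, with log2 fold changes of 1.69 to 4.72. In that fit 2246 of all gene models were called higher. Of the 145 gene models above both woods, 55 were called higher and 27 lower on xylan-galactomannan than on maltose, with a median log2 fold change of 0.46. Of the 22 genes that the study marked for wheat straw alone, 17 were called higher and 0 lower, and 12 of these lay outside the 5. The call was thus not particular to the 5.

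Xylan-galactomannan was also set against Avicel, whose libraries had likewise served in the study's marking, so these values too are a description. By the call rule 4 of the 5 genes passed as higher on xylan-galactomannan, where 16.3% of all gene models did. The log2 fold change was 3.11 (SE 0.25) for 1341535, 1.86 (SE 0.26) for 1422935, 1.76 (SE 0.20) for 1434417 and 3.66 (SE 0.36) for 1448471. The monooxygenase gene 1434060 was the exception, with -0.39 (SE 0.32) and a 95% interval from -1.06 to 0.27. The same 4 genes passed without replicate 3, with log2 fold changes of 1.59 to 3.60, where 1979 of all gene models were called higher. Of the 22 marked genes, 12 were called higher and 3 lower on xylan-galactomannan than on Avicel. Outside the 5 these were 8 higher and 3 lower.

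Wheat straw was set against xylan-galactomannan directly, in a comparison that shares its wheat straw libraries with the choice of the genes. The values are therefore a description, with no test read from them. The monooxygenase gene 1434060 had a log2 fold change of 2.24 (SE 0.33), and 2.25 without xylan-galactomannan replicate 3. Gene 1422935 had 0.82 (SE 0.25), and 1.01 without wheat straw replicate 1. For 1341535 the log2 fold change was -0.43, with a 95% interval from -0.92 to 0.06. For 1434417 it was 0.39, with an interval from -0.02 to 0.79, and for 1448471 it was 0.22, with an interval from -0.47 to 0.90. Differences of nearly 2-fold thus remain within these intervals. For 1448471 the sign rested on 1 library, since the log2 fold change became -0.19 without wheat straw replicate 2. By the call rule 1 of the 5 passed, 1434060, where 12.1% of all gene models were called higher on wheat straw. Of the 145 gene models above both woods, 63 were called higher on wheat straw than on xylan-galactomannan and 1 lower.

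Xylan-galactomannan was also set against the woods, a comparison chosen after the levels had been seen and sharing its wood libraries with the choice of the genes. Its values are given side by side and no test is read from them. Against aspen the log2 fold changes were 1.88 for 1341535, 1.15 for 1422935, -0.29 for 1434060, 0.80 for 1434417 and 4.07 for 1448471. Against pine they were 1.53, 0.78, -0.83, 1.22 and 2.47 in the same order. All xylan-galactomannan libraries lay above all libraries of both woods for 4 genes, and for 1434060 they overlapped with both. How many of all gene models lie apart in this way was not counted, so nothing is read from the 4. By the call rule 3 of the 5 passed as higher on xylan-galactomannan against each wood. Of all 11168 gene models tested, 1245 were called higher than on aspen and 2026 higher than on pine. Lower on xylan-galactomannan than on pine were 18.5%.

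The woods and Avicel were next set against maltose. The wood libraries had served in picking the 5 genes, and the libraries of all 4 carbon sources had served in the study's marking, so these values too are a description with no test read from them. The monooxygenase gene 1434060 and the oxidoreductase gene 1434417 had log2 fold changes above 1 on all 3 of these substrates. For 1434060 the log2 fold change was 1.97 (SE 0.34) on aspen, 2.53 (SE 0.35) on pine and 2.06 (SE 0.34) on Avicel. For 1434417 it was 2.41 (SE 0.18), 2.01 (SE 0.17) and 1.43 (SE 0.17). Gene 1422935 had 1.62 (SE 0.25) on aspen, 2.01 (SE 0.25) on pine and 0.89 (SE 0.24) on Avicel, the last becoming 1.07 without Avicel replicate 1.

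The protease gene 1448471 had 2.31 (SE 0.36) on pine, 1.09 (SE 0.34) on Avicel and 0.69 (SE 0.34) on aspen. The galactonate dehydratase gene 1341535 had 0.44 (SE 0.22) on aspen, 0.80 (SE 0.22) on pine and -0.81 (SE 0.22) on Avicel. By the call rule, 3 of 5 passed on aspen, 4 on pine and 3 on Avicel, where 19.5%, 22.1% and 14.1% of all gene models were called higher. The passing of 1448471 on Avicel was lost without maltose replicate 2, and 1422935 passed there without Avicel replicate 1. Wheat straw gave larger values in each gene, of 1.87, 3.58, 3.91, 3.58 and 4.97 in the order of the protein IDs, which the study's marking had required to be above 1. All 5 also passed the rule on wheat straw against Avicel, with 2.68, 2.69, 1.85, 2.15 and 3.88. The background was 17.3% against maltose and 13.3% against Avicel, and nothing is read from these counts.

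**Figure D3:**
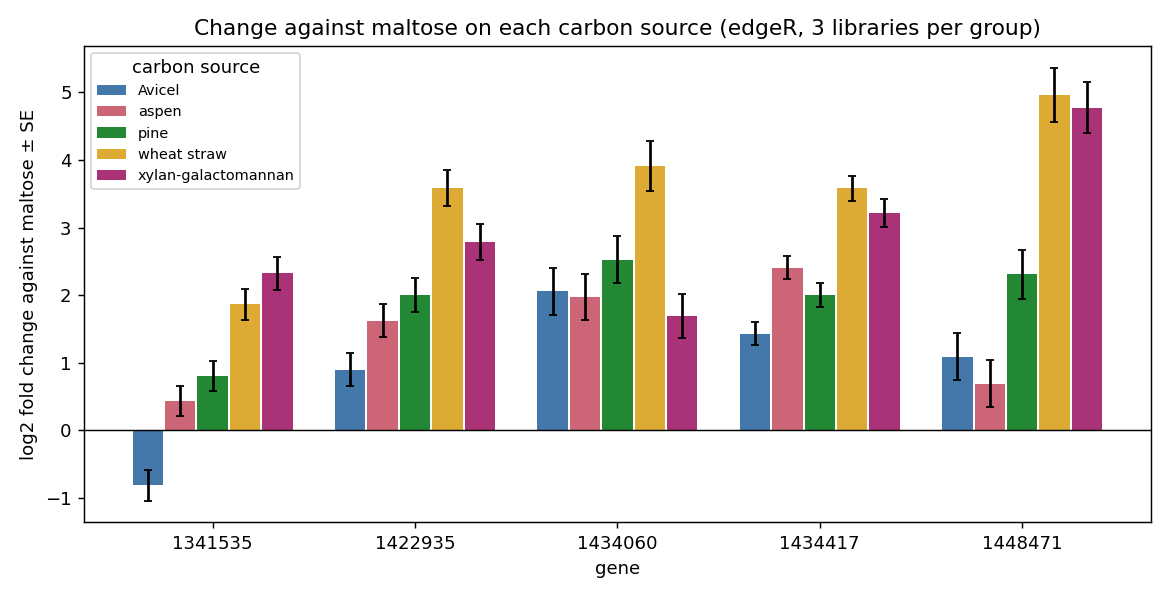
Log2 fold change against maltose of the 5 genes on the other 5 carbon sources, where bars are edgeR estimates from 3 libraries per group and error bars are ± SE. On xylan-galactomannan the bars reach 1.70 to 4.78, and the bar of 1434060 is the 1 that falls well short of its wheat straw bar of 3.91.

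Between the woods, whose libraries had both served in picking the 5 genes, the values are likewise a description. The protease gene 1448471 had a log2 fold change of 1.62 (SE 0.35) on pine against aspen and was the 1 of the 5 that passed the call rule, where 9.39% of all gene models were called higher. The others had 0.37, 0.38, 0.55 and -0.40 for 1341535, 1422935, 1434060 and 1434417.

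Among cultures of 1 carbon source the 5 genes shared their lowest library on wheat straw, pine and xylan-galactomannan, but not elsewhere. They shared their highest library on wheat straw, but not on pine or xylan-galactomannan. After the mean of each carbon source was subtracted from the log2 levels, the deviations of all 10 pairs of genes correlated positively over the 18 libraries, with Pearson r of 0.21 to 0.78 and a median of 0.48. The points share libraries and their scaling, and r is given as a description. Pairs of other genes were not measured in this way, so the correlation is not read as particular to the 5. The closest pair was the galactonate dehydratase gene 1341535 and the oxidoreductase gene 1434417 with r of 0.78, and the most distant was 1434060 and 1448471 with 0.21. Without the wheat straw libraries r was 0.06 to 0.81 with a median of 0.34, and without xylan-galactomannan replicate 3 it was 0.21 to 0.78 with a median of 0.48.

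Wheat straw replicate 1, xylan-galactomannan replicate 2 and pine replicate 3 were each the lowest library of their carbon source in all 5 genes. Over all 11112 gene models tested, these libraries were the lowest of their group in 37.6%, 36.1% and 35.2%. Of the other 140 gene models above both woods, 72.9% were lowest in wheat straw replicate 1. For xylan-galactomannan replicate 2 and pine replicate 3 this share was 37.1% and 33.6%. Pine replicate 3 and xylan-galactomannan replicate 2 had the lowest totals of their groups, 28399534 and 26370228 counts. Wheat straw replicate 1 had 39625182, between the other wheat straw libraries. The part of depth in these deviations was not tested. On maltose, Avicel and aspen no library was lowest in all 5 genes. On aspen, replicate 1 was lowest in 4 genes and replicate 3 in 1. On maltose replicate 1 was lowest in 3 genes, and on Avicel replicate 2 was, with the remaining replicates lowest in 1 each. In maltose replicate 1 the deviation was 0.46 for 1434060 and -0.32 for 1341535 on the log2 scale.

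**Figure D4:**
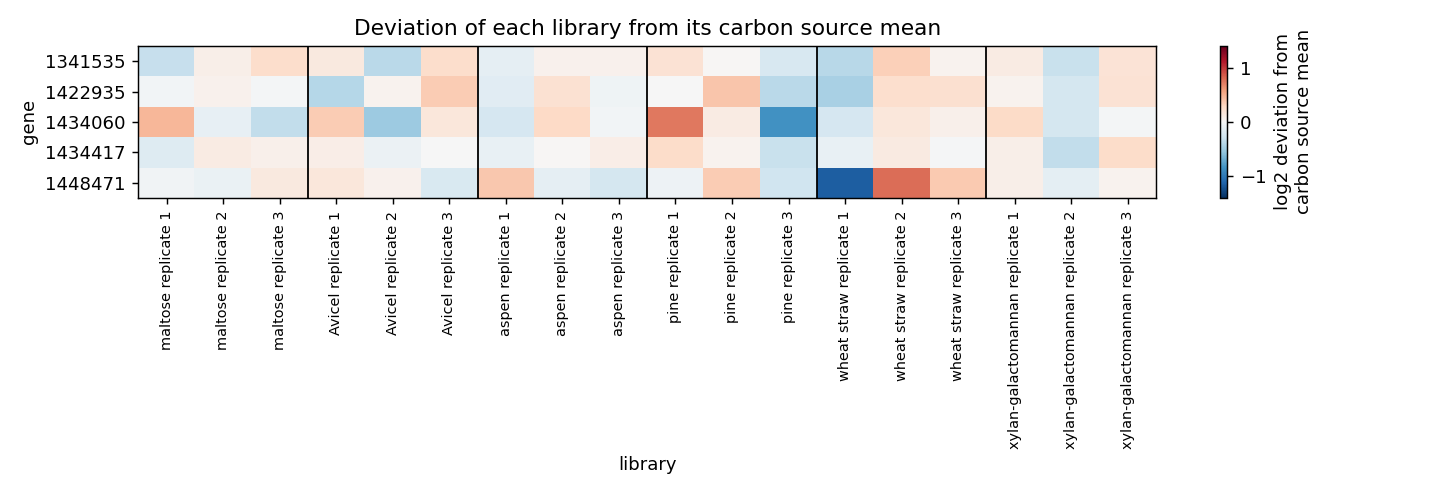
Deviation of each library from the mean log2 level of its carbon source (colour, blue below and red above the mean) for the 5 genes (rows) in the 18 libraries (columns, with vertical lines between carbon sources). Wheat straw replicate 1 is blue in all 5 rows, most deeply in 1448471, and pine replicate 3 is blue in all 5, most deeply in 1434060.

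Over the levels themselves, the 10 pairs correlated with r of 0.42 to 0.95 and a median of 0.82 across the 18 libraries, a likeness that the shared high level on wheat straw fixes in part. Without wheat straw and xylan-galactomannan the median was 0.65. Among 9194 gene models with a mean normalized count of at least 100, the 3 most like each gene by this r were then sought. For 1422935, the oxidoreductase gene 1434417 was the second in order with r of 0.95, and no other member was among another's closest 3. Gene 1427570 was the closest to both 1422935 (r = 0.95) and 1434417 (r = 0.96), and it held means of 2964 normalized counts on wheat straw, 1937 on xylan-galactomannan, 1320 on aspen and 350 on maltose. The others like 1422935 and 1434417 were 1439697, 1460750 and 1431190, with r of 0.93 to 0.95.

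For the galactonate dehydratase gene 1341535 the closest were 1392020, 1443403 and 1434851, with r of 0.94, 0.93 and 0.93. For the protease gene 1448471 they were 1490075 (r = 0.97), 1479114 (r = 0.93) and 1461571 (r = 0.93). Gene 1461571, annotated as a serine/threonine protein kinase, rose from means of 146 normalized counts on maltose and 208 on aspen to 31197 on wheat straw and 14466 on xylan-galactomannan. For the monooxygenase gene 1434060 they were 1468151 (r = 0.91), 1431520 (r = 0.90) and 1440726 (r = 0.89). Gene 1468151 held a mean of 58253 normalized counts on wheat straw against 17177 on aspen, 14607 on xylan-galactomannan and 689 on maltose. Gene 1440726, annotated as an oxidoreductase, held 6447 on wheat straw, 1334 on aspen, 779 on xylan-galactomannan and 30.5 on maltose. The genes most like 1434060 thus also held lower means on xylan-galactomannan than on wheat straw and aspen, a feature that their likeness to it fixes in part.

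Genes of a fungal pathway can lie side by side, so the gene models around each of the 5 were examined. The Pycco1 annotation names no chromosome. Where its sequences were split at falls in the start position, the 5 lay on 5 different ones. Of the 30 gene models that are up to 3 places away, 28 were tested, and 0 were called higher on wheat straw than on both woods by edgeR. Over all gene models tested the share was 1.30%. With a share this low, 0 among 28 cannot show whether such genes lie side by side. Of the 28, 1 was called lower on wheat straw than on both woods, 1478409, which lies 3 places before 1341535, with log2 fold changes of -1.02 (adjusted p = 0.0119) against aspen and -1.05 (adjusted p = 0.00435) against pine. At an unadjusted p under 0.05 with no limit on the fold, 4 of the 28 were higher in both comparisons, and with DESeq2 1 was called higher in both, 1064528 beside 1422935. Singly, 2 were called higher and 1 lower against aspen, where 4.13% of all gene models were called higher and 6.51% lower. Against pine 3 were called higher and 1 lower, where 10.0% and 11.6% of all gene models were. On wheat straw compared to maltose, 6 were called higher and 1 lower, where 17.3% and 12.9% of all gene models were. On xylan-galactomannan compared to maltose 5 were called higher and 3 lower, where 19.4% and 14.5% were. Nothing is read from these counts. Of the 3 gene models that follow the galactonate dehydratase gene 1341535, the nearest 2 were among those up-regulated on both media, 1436302 with log2 fold changes of 2.04 on wheat straw and 2.83 on xylan-galactomannan and 1468559 with 6.85 and 6.70. The third, 1369472, had -0.48 on wheat straw and was called lower on xylan-galactomannan with -1.36 (adjusted p = 0.0168, edgeR). These 3 were singled out after their values had been seen. Against the woods 1468559 had 0.24 on aspen and 1.83 on pine.

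**Figure D5:**
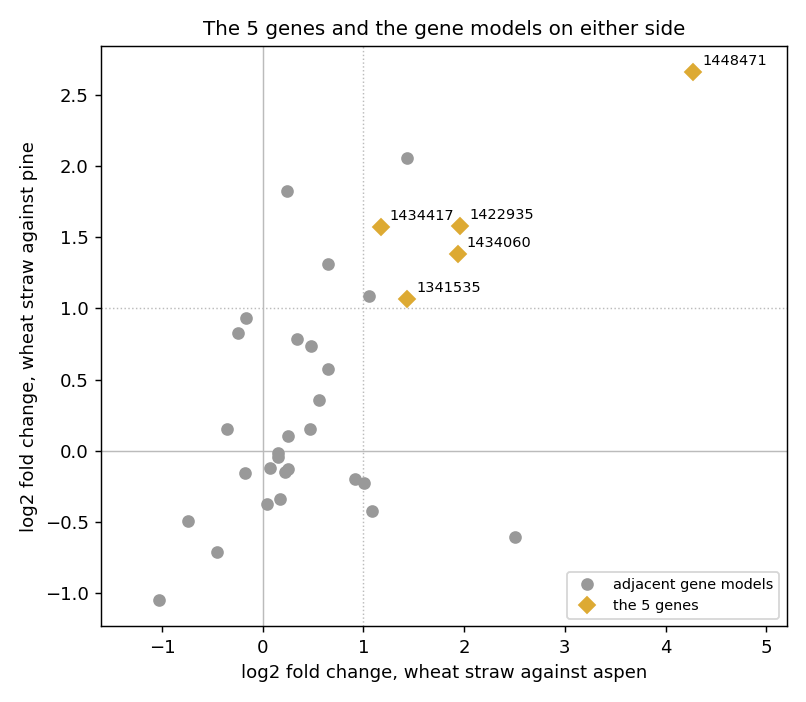
Log2 fold change of wheat straw against aspen (horizontal) and against pine (vertical) for the 5 genes (diamonds) and the 28 tested gene models up to 3 places away (circles), with dotted lines at the fold limit of 1. The diamonds lie above both limits, as the choice of the genes required, and of the circles 2 lie past both limits without being called in both comparisons.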

How the data were processed

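RNA of Pycco 310 was measured in 18 libraries of 6 carbon sources, with 3 cultures each. Reads were trimmed with the JGI QC pipeline, aligned with TopHat 2 and counted with HTSeq, and the submitters' processing notes also name DESeq 1.5. The deposited values are raw counts for each gene model (12690, of which 773 had no count in any library) and the RPKM that the authors made from them, that is counts per mappable length and library total. Of the per-sample columns, 0 were left over. Each sample was grouped by its title and agent. The study's methods call the cultures of a carbon source independent.

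The counts entered the quasi-likelihood test of edgeR 4.0.16 under R 4.3.3 (TMM factors, filterByExpr, glmQLFTest, Benjamini-Hochberg adjustment, adjusted p under 0.05 and log2 fold change over 1 in size). One fit held 15 libraries and 11112 gene models, and a second 18 libraries and 11168 gene models for xylan-galactomannan. All 5 genes passed the filter. The SE was the absolute log2 fold change divided by the square root of F, and 95% intervals used the degrees of freedom of the same test. The script was tested on simulated data. Levels used DESeq size factors over 18 libraries and a pseudocount of 1. RPKM served only to compare genes with each other, with no test. Replicates differed by more than sampling noise (chi-square per degree of freedom 22.3 to 350.3). Same-numbered libraries deviated with r of -0.14 to 0.28, and no pair of groups, 0 of 15, had every r over 0.1, so replicate numbers were not taken as pairs.

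The genes, lists and tests were chosen with earlier results of these data known. Genes named beside the 5 are the 3 most like each by Pearson r, the 3 just outside the rule, and neighbours called against both woods. Gene 1387488 was added because it tied with the last of these 3, and further exceptions are named as chosen after their values were seen. The public annotation of Pycco1 matched 12680 IDs by locus tag. Its locus order was used for neighbours. Its coordinates served only to split the sequences and to find overlaps of the 5 with these neighbours, since it names no chromosome. Functions are the study's annotation. The alternatives were RLE factors, DESeq2 1.42.0, no filter on low counts, Bonferroni adjustment, a replicate block, only the groups compared, all 18 libraries, each library left out in turn, TMM log2 CPM levels and pseudocounts of 0.5 and 5. Scaling by library totals was added after seeing the data. Plots were made with matplotlib 3.10.9. Sequence comparisons of the genes and their promoters were not run, since no sequence tables were used here.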

Additional observations from a re-analysis of the deposited data

How the results depend on the processing

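Over 885 single-gene comparisons of the 5 genes with an alternative, 860 kept direction and side of the threshold, 17 fell short of it, 7 newly passed it and 1 reversed. The reversed one was 1448471 on wheat straw against xylan-galactomannan, with -0.19 to 0.60 when 1 library was left out, -0.19 without wheat straw replicate 2. The 885 include wheat straw against each wood, where the genes had been picked for passing in most settings. The outcome there was fixed in part by that choice, so 860 of 885 is no measure of robustness. The 90 of 90 levels recomputed with other scalings or pseudocounts moved by less than the spread between replicates. With Bonferroni adjustment, 3 of the 5 genes were called higher on wheat straw than on aspen and 2 than on pine, 1 on aspen and 1 on Avicel compared to maltose, and 0 on pine than on aspen. It left 4 on wheat straw against Avicel, 3 on pine compared to maltose, and 4 on xylan-galactomannan compared to maltose, where 1434060 was lost. Over all 11112 gene models it left 40 higher on wheat straw than on aspen, 234 than on pine and 372 than on Avicel. Compared to maltose it left 921 higher on aspen, 587 on Avicel and 1072 on pine, and 51 were higher on pine than on aspen. Over 11168 gene models it left 944 higher on xylan-galactomannan than on maltose. Nothing is read from these counts of the 5. Leaving out 1 library at a time gave 1 to 2 genes higher on wheat straw than on xylan-galactomannan, 4 to 5 on wheat straw than on pine and 2 to 4 on Avicel than on maltose. Over all gene models the same fits called 1030 to 1856, 909 to 1488 and 1472 to 1672 higher in this order. Leaving out 1 library also gave 0 to 1 genes lower on xylan-galactomannan than on pine, where 1434060 was called without pine replicate 3 at -1.15. Over all gene models 1861 to 2335 were called lower there, and 1897 without pine replicate 3. On xylan-galactomannan against pine, 1422935 passed the fold limit at 1.01 without pine replicate 2. The replicate block gave the same 5 and 5 genes on wheat straw against aspen and pine and 1 against xylan-galactomannan, and it changed 0 of 65 calls. With it 459, 1134 and 1417 of all gene models were called higher in the same order. A neighbour window of 1 gene model on each side also gave 0 called higher on wheat straw than on both woods, where 1.30% of all gene models were.

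Over all gene models, Bonferroni adjustment cut the calls between wheat straw and aspen from 1182 to 182 and between wheat straw and pine from 2404 to 480, and to 0.106 to 0.428 times the other main counts. Without aspen replicate 1 and without wheat straw replicate 3 the wheat straw and aspen calls fell to 784 and 758. Scaling by library totals moved the median of all gene models by -0.39 on pine and 0.20 on Avicel compared to maltose, -0.29 on pine against aspen, and 0.25 and 0.52 on xylan-galactomannan against aspen and pine. The share of higher genes among calls moved from 55.0% to 35.8%, 48.1% to 61.2%, 55.3% to 26.7%, 45.6% to 66.6% and 49.5% to 77.4% in the same order. On wheat straw and xylan-galactomannan compared to maltose the median moved by 0.19 and 0.14. With this scaling 1422935 was called on Avicel compared to maltose, at 1.08, and on xylan-galactomannan against pine, and 1434417 on xylan-galactomannan against aspen. The cause of these changes was not tested. With 3 cultures per carbon source, precision is set by the spread between cultures, which was widest for 1448471 on wheat straw (SD 1.02 on the log2 scale).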
